A study of Mus musculus with 6 samples.

Results

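Chromosome 12 of the mouse carries Meg3, the long noncoding RNA that the study used as bait, and the chromosome contributed 429 of the 9010 regions in the deposited list. Its members are all the rows of the list that lie on chromosome 12, whatever their width. None was filtered out. They were spread along the whole chromosome at 3.66 regions per Mb, close to the 3.71 per Mb of the other autosomes. The 2 Mb around Meg3 held 9 of them, or 4.50 per Mb, against 3.65 per Mb on the rest of the chromosome, and this difference was smaller than the counting error and the spread between windows of that length.

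The study used ChIRP, in which biotinylated DNA probes complementary to an RNA pull down that RNA from cross-linked chromatin together with the DNA attached to it. It was done in MIN6-4N, a line derived from a mouse insulinoma, a tumour of insulin-producing cells. One stable clone (V3) carried the pcDNA3.1 vector and the other (M5) carried pcDNA3.1-Meg3, so that M5 had plasmid Meg3 sequence beside its own Meg3 gene. Both were selected with G418 at 750 µg/ml, grown on at 500 µg/ml and cross-linked with 1% glutaraldehyde. Each clone gave 3 libraries of 1 replicate each, namely an input without probe and separate pull-downs with the odd and the even Meg3 probe mix. The list used here carries the code of the M5 clone and gives positions only. No level per region, no value per library and no comparison with V3 could therefore be made. Each genotype was a single clone, and every count below describes 1 list without replicates.

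Meg3 is expressed from the maternally inherited chromosome and belongs to the Dlk1-Dio3 imprinted domain near the distal end of mouse chromosome 12. Imprinted genes are transcribed from only the maternal or only the paternal copy. In this domain Dlk1 (a membrane protein of the Notch ligand family), Rtl1 (a protein derived from a retrotransposon) and Dio3 (the deiodinase that inactivates thyroid hormone) are paternally expressed, while Meg3, Rian and Mirg are noncoding RNAs of the maternal copy that host clusters of small RNAs. In the gene order of RefSeq on GRCm38.p6, Dlk1 came first, followed by Meg3, Rtl1, Rian, Mirg and Dio3. The run from Dlk1 to Dio3 held 103 genes in that table, of which 61 were miRNA genes, 19 snoRNA genes, 16 lncRNA genes, 4 pseudogenes and 3 protein-coding genes. The regions are given on mm9, another build, so the 9 regions near Meg3 were not assigned to these genes, and their sequences and their place in exons or introns were not analysed here.

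The window examined ran from 109.5 to 111.5 Mb of chromosome 12 (mm9), the stretch set for the domain. Counts, widths and densities given for the domain are those of this whole window. Where Dlk1 and Dio3 lie relative to its edges was not determined. Some of its regions may therefore lie outside the run from Dlk1 to Dio3, and parts of that run may lie outside the window. Its 9 regions fell into 2 clusters, in which neighbours were under 100 kb apart, and 2 lone regions. The first cluster ran in from before the window, and its part inside comprised 4 regions within 160 kb. How often 4 regions lay as close elsewhere on the chromosome was not counted. The 4 inside the window lay at chr12:109558055-109558181 (127 bp), chr12:109636344-109636410 (67 bp), chr12:109674536-109674699 (164 bp) and chr12:109718011-109718424 (414 bp). They were followed by 594 kb without a region and then by the lone region chr12:110312459-110312798, 340 bp wide, whose nearest neighbour was 433 kb away.

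The second cluster held 3 regions in 50.7 kb, from 110745857 to 110796534. It opened with the widest region of the window, chr12:110745857-110746343, at 487 bp, which ranked 18 of 429 by width on the chromosome. The next, chr12:110770383-110770502, was 120 bp wide and lay 24.0 kb further on. The third, chr12:110796443-110796534, was 92 bp wide and followed after 25.9 kb. A run of 3 regions as tight as this occurred 15 times among the 427 runs of 3 neighbouring regions on chromosome 12 (3.51%). This cluster was singled out after its positions had been seen.

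After the second cluster came the longest empty stretch of the window, 670 kb, which ended at the last region, chr12:111466136-111466243, of 108 bp. On chromosome 12 as a whole, 36 of 428 stretches between neighbouring regions were longer than this (8.41%), and the median stretch was 140 kb. Successive pieces of 0.5 Mb across the window thus held 4, 1, 3 and 1 regions. Both clusters together accounted for 7 of the 9 regions, with 2 of 9 separated from any neighbour by more than 100 kb. Neighbours this close were common on chromosome 12, where 256 of 429 regions (59.7%) had another within 100 kb.

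**Figure D1:**
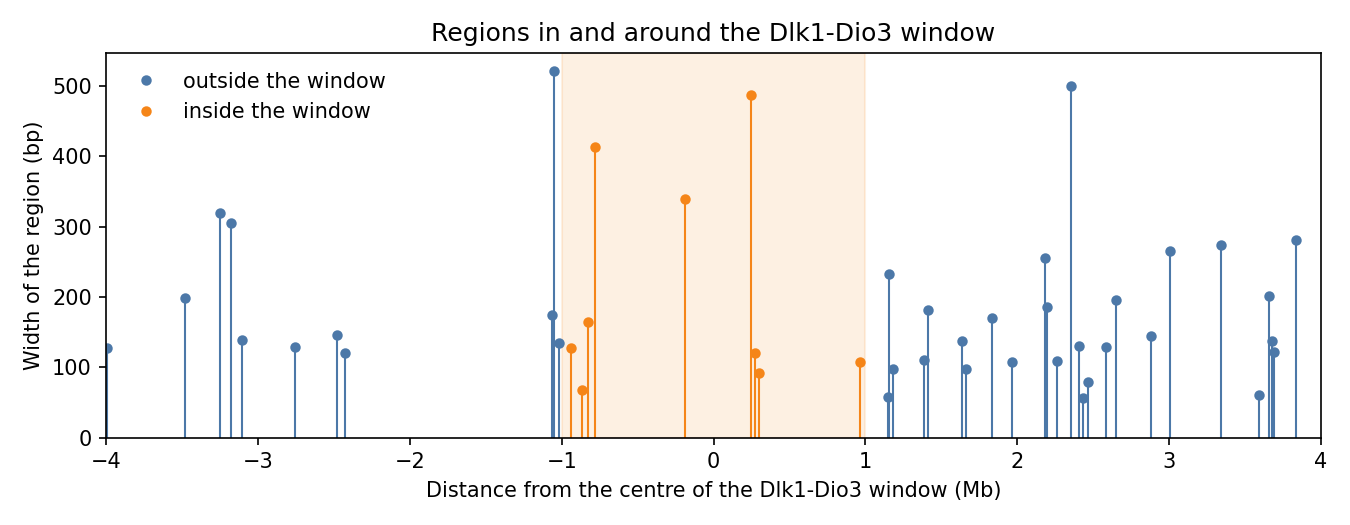
Each stem is 1 listed region within 4 Mb of the centre of the Dlk1-Dio3 window, placed by its distance from that centre in Mb, with its width in bp as the height. Orange stems are the 9 regions inside the 2 Mb window (shaded) and blue stems lie outside; the clusters of 4 and 3 regions and the 670 kb without a region can be seen inside it.

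Just outside the window, the nearest region on the proximal side was chr12:109483796-109483929 (134 bp), 74.1 kb before the first member, and the nearest on the distal side was chr12:111645688-111645745 (58 bp), 179 kb after the last. The 0.5 Mb before the window held 3 regions, which continued the first cluster at spacings under 100 kb. Before them lay an empty stretch of 1.37 Mb, which ranked 11 of 428 by length on the chromosome. The 0.5 Mb after the window held 5 regions. The Mb from 112 to 113 Mb, which starts 0.5 Mb beyond the window, held 11 regions and was the fullest window of 1 Mb on chromosome 12. Windows of 1 Mb with at least 11 regions made up 3.09% of those on the other autosomes (70 of 2264).

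The density in the domain window was 4.50 regions per Mb (95% exact Poisson interval 2.06 to 8.54), and on the remaining 115 Mb of the chromosome, with 420 regions, it was 3.65 per Mb (3.30 to 4.01). The ratio of the densities was 1.23, with an exact interval from 0.561 to 2.37 that includes 1. At the density of the rest, 7.29 regions would fall in 2 Mb. These intervals treat regions as independent, and counts varied more than that: windows of 2 Mb on chromosome 12 other than the domain held 7.28 ± 4.64 regions (SD over 57 windows), a range of 0 to 19 with a median of 7. The 9 regions of the domain lay less than 1 SD above that mean. Of the 57 windows, 22 held at least as many (38.6%). On all 19 autosomes 413 of 1185 windows of 2 Mb did so (34.9%).

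By point values, the flanks of the domain were denser than the rest of the chromosome as a whole. The ratio therefore depended on what the domain was set against. The 10 Mb before it held 48 regions (4.80 per Mb, 3.54 to 6.36). The 9.04 Mb from its end to the last listed region held 39 (4.31 per Mb, 3.07 to 5.90). Both flank intervals included the 3.65 per Mb of the rest of the chromosome. Against these flanks alone the ratio was 0.985 (0.436 to 1.96), close to 1. This interval and that against the whole rest of the chromosome both included 1, so neither ratio had a clear direction. Narrower or wider windows with the same centre gave 4.00 regions per Mb in 1 Mb (4 regions), 5.25 in 4 Mb (21 regions) and 5.75 in 8 Mb (46 regions). The intervals in 1 Mb (1.09 to 10.2) and 4 Mb (3.25 to 8.03) included the 3.65 per Mb of the rest of the chromosome. That in 8 Mb (4.21 to 7.67) lay above it, in a window that lies for the most part outside the domain. In 16 Mb the density was 4.62 per Mb (74 regions), and its interval (3.63 to 5.81) again included 3.65. All these intervals cover counting error only, and the rest of the chromosome includes the parts of the wider windows that lie outside the domain.

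A window at the same distance from the end of the listed regions, 9.04 to 11.0 Mb before the last one, was taken on each of the other 19 nuclear chromosomes. It held a median of 8 regions, with a range of 0 (X) to 13 (chromosomes 1 and 17). Of the 19 other chromosomes, 7 held more than the 9 regions of chromosome 12 and 12 held fewer. The count at the Meg3 domain was therefore in the middle of the range for this position.

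**Figure D2:**
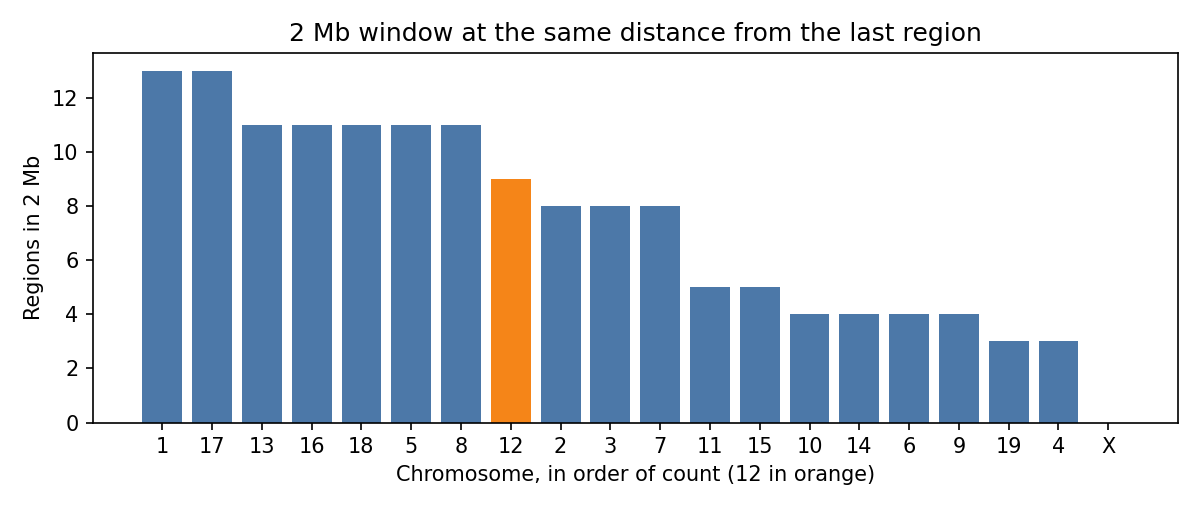
Bars give the number of regions in the 2 Mb window that lies 9.04 to 11.0 Mb before the last listed region of each chromosome, in falling order. Chromosome 12 (orange), where the window is the Dlk1-Dio3 window, has 9 regions, and the other 19 chromosomes have 0 to 13.

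Widths in the domain lay within the range of widths elsewhere. Their median was 127 bp, with a range of 67 to 487 bp, against a median of 173 bp and a range of 42 to 810 bp on the rest of the chromosome. Of the 9, 6 were narrower than the median of the rest. The regions covered 1919 bp, or 0.0959% of the window, against 0.0730% of the rest of the span. The median distance to the nearest region was 38.1 kb for the 9 regions and 81.7 kb for the others. With 9 regions that share their neighbours, no test was made of these differences.

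Along the chromosome the listed regions ran from 3323287 (first region 3323287 to 3323451) to 120542141 (last region 120541952 to 120542141), a span of 117 Mb. Crowded and empty stretches alternated, and the limits of the stretches given here were chosen after the profile had been seen. The most proximal 14.7 Mb, up to 18 Mb, held 58 regions (3.95 per Mb), and from 25 to 46 Mb there were 84 (4.00 per Mb). Between them, from 18 to 25 Mb, lay a single region of 112 bp at 21187415 to 21187526. The 24.0 Mb from 46 to 70 Mb were sparse, with 43 regions (1.79 per Mb).

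The fullest long stretch was from 70 to 89 Mb, where 119 regions (6.26 per Mb) made up 27.7% of the members on 16.2% of the span. Density dropped to 2.55 per Mb from 89 to 100 Mb (28 regions) and was high again, at 5.73 per Mb, from 100 to 115 Mb (86 regions), the stretch that includes the Meg3 domain. Beyond 115 Mb there were 10 regions (1.80 per Mb). The part of the span before its midpoint at 61.9 Mb held 174 regions and the part after it held 255, a ratio of 1.47 (1.20 to 1.79 by counting error alone).

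**Figure D3:**
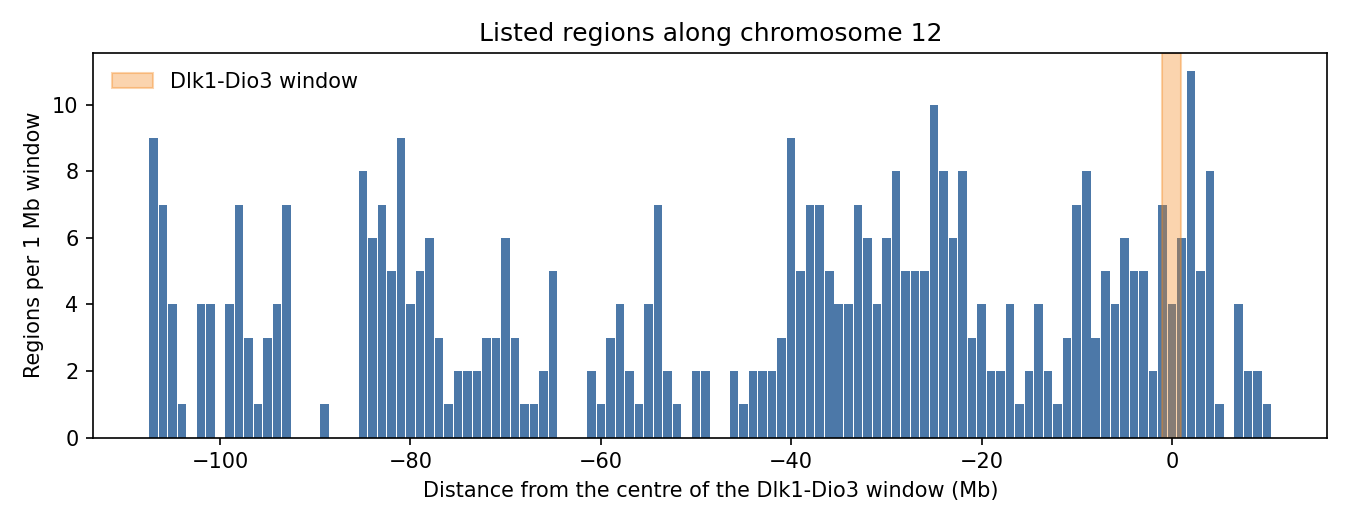
Bars count the listed regions in each window of 1 Mb along chromosome 12, placed by distance from the centre of the Dlk1-Dio3 window in Mb, which is shaded in orange. The fullest bar, with 11 regions, lies just beyond the shaded window, the broad block to the left of it corresponds to the 119 regions of the densest stretch, and bars are missing where no region was listed.

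The fullest windows of 1 Mb after that at 112 Mb were from 85 to 86 Mb, with 10 regions, and from 3 to 4 Mb, 29 to 30 Mb and 70 to 71 Mb, with 9 each. At the other extreme, 15 of 116 whole windows of 1 Mb held no region (12.9%), compared with 9.50% on the other autosomes. Chromosomes 14 (19.5%), 7 (17.6%) and 2 (16.9%) had larger shares of empty windows.

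The longest empty stretches of chromosome 12 were 3.90 Mb (21187526 to 25089889), 3.63 Mb (45760092 to 49389695) and 3.41 Mb (17777832 to 21187415). The first and the third flank the lone region named above, so that 7.31 Mb of the chromosome contained 1 listed region. Stretches over 2 Mb numbered 7 and took up 17.2% of the span, the third largest share among the 19 autosomes after chromosome 2 (19.3%) and chromosome 7 (17.6%). On chromosomes 16 and 10, the closest in density (3.60 and 3.53 per Mb), such stretches took up 5.86% and 6.69%, and on chromosome 6, the next above in rank, 4.83%. Assembly gaps and sequence in which reads cannot be placed were not analysed here.

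At the other end of the scale, close neighbours were few. The closest pair was separated by 104 bp (9039554 to 9039652 and 9039757 to 9039833). In the next pair the separation was 872 bp (77900882 to 77901099 and 77901972 to 77902026). The third pair, 1365 bp apart, comprised the region at 106177539 to 106178153 and its neighbour at 106179519 to 106179618. The nearest neighbour lay within 1 kb for 4 regions (0.932%), within 10 kb for 34 (7.93%) and within 100 kb for 256 (59.7%). The median distance to the nearest region was 80.3 kb (order-statistic interval 69.1 to 88.5 kb, quartiles 33.4 and 153 kb), within the range of 48.9 to 146 kb over the other autosomes.

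The members were 42 to 810 bp wide, with a median of 171 bp (interval 153 to 185 bp) and quartiles of 113 and 254 bp. This was the second highest median among the autosomes, whose others ranged from 154 to 172 bp, but its interval included the medians of all 18 other autosomes. The widest region was chr12:72704035-72704844 (810 bp), followed by chr12:5294730-5295430 (701 bp), chr12:106177539-106178153 (615 bp), chr12:100506625-100507214 (590 bp) and chr12:29074624-29075203 (580 bp). None of these 5 was in the Meg3 domain. The narrowest were chr12:15118046-15118087 and chr12:80027047-80027088, each of 42 bp, and chr12:15909522-15909564, of 43 bp. Widths of 500 bp or more were found for 16 regions (3.73%, against 3.54% on the other autosomes) and widths under 100 bp for 73 (17.0%, against 18.9%). Together the members covered 86.0 kb, or 0.0734% of the span.

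Set against the other chromosomes, chromosome 12 was ordinary in density. Its members were 4.76% of the nuclear list (Clopper-Pearson interval 4.33 to 5.22), and it made up 4.57% of the nuclear span. Its 3.66 regions per Mb (3.32 to 4.02) ranked 10 of 20, between chromosome 6 (3.85, 3.54 to 4.18) and chromosome 16 (3.60, 3.22 to 4.00), and the intervals of these neighbours overlapped. The ratio to the other autosomes was 0.988 (0.894 to 1.09). Variation along the chromosome was also of common size, with a variance of the counts in windows of 2 Mb of 2.90 times their mean, against 1.36 to 4.63 on the other autosomes.

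**Figure D4:**
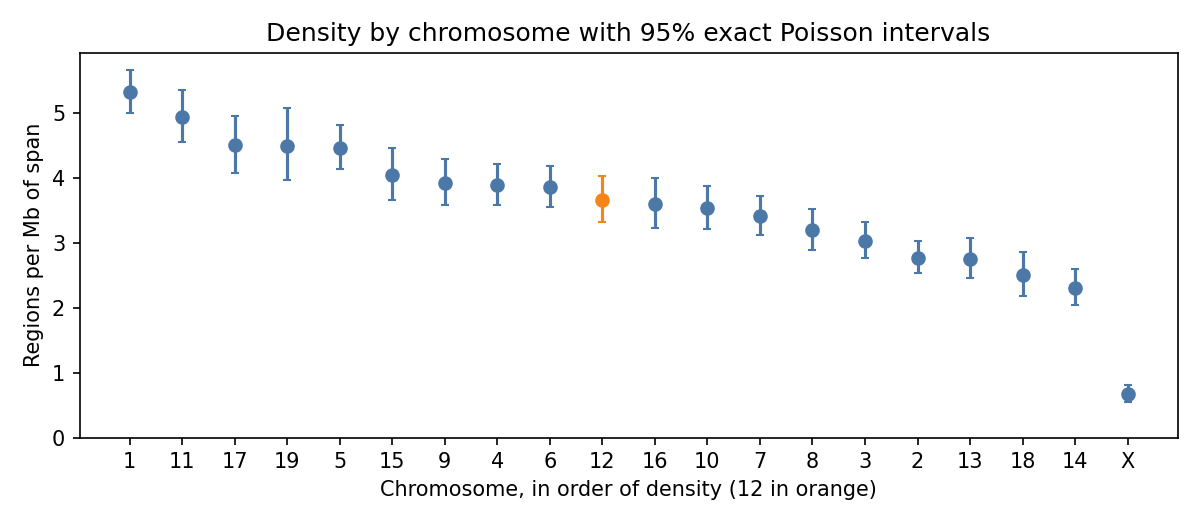
Points give the listed regions per Mb of span for each nuclear chromosome in falling order, with 95% exact Poisson intervals that cover counting error only. Chromosome 12 (orange), at 3.66 per Mb, lies between chromosomes 6 and 16, and its interval overlaps theirs.

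The ends of chromosome 12 differed little. The first 10% of the span held 44 regions (10.3%, exact interval 7.55 to 13.5) and the last 10%, which includes the Meg3 domain, held 51 (11.9%, 8.98 to 15.3). Their ratio was 1.16 (0.759 to 1.78). The share in the last 10% ranked 14 of the 19 autosomes, where the others ranged from 9.30% to 17.8%. Compared over the first and last 20% of the span, the ratio was 1.44 and its interval (1.05 to 1.97) no longer included 1. That interval covers counting error only, whereas counts in windows of 2 Mb had a variance of 2.90 times their mean. It is therefore too narrow to give the ratio a clear direction.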

How the data were processed

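ChIRP-seq of Meg3 was performed in 2 MIN6-4N clones, with single-end reads of 50 bp per the labels. The authors deposited 1 list of regions for the Meg3 clone (M5), on mm9 per the submitters' processing notes. The score columns of the deposited list hold 0 in every row. The other deposited values are region starts and ends in bp. The caller, threshold, aligner, meaning of "unique" in the list's name and use of each library are not given in the sources used here, and depth is unknown. Starts were converted to count from 1. Regions were placed by their midpoint, density was taken over the span bounded by the outermost regions, and width is the deposited end minus the deposited start, before that conversion. With 1 library per group no test over samples exists. Densities have 95% exact Poisson intervals, shares exact Clopper-Pearson intervals, ratios exact conditional binomial intervals and medians order-statistic intervals, all covering counting error only. Functions were tested on simulated data. For the density ratio these placed regions independently of each other, so the coverage of its interval under clustering like that seen here was not tested. The members, window and lists were chosen with earlier results of these data known. Regions named in the text are those inside the domain window, those beside it, the 5 widest, the 3 narrowest, the first and last, the 3 closest pairs, the 3 longest empty stretches and the fullest windows of 1 Mb. Planned steps needing mm9 genes or sequence were not run. Python 3.11.15, NumPy 2.4.6, SciPy 1.17.1, pandas 2.3.3 and matplotlib 3.10.9 were used.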

Additional observations from a re-analysis of the deposited data

How the results depend on the processing

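Of 23 alternatives, 19 stayed within the interval of the value reported. The density of chromosome 12 fell to 1.94 per Mb among the 227 regions at or above the median width of the nuclear list and to 3.04 per Mb among the 356 of 100 bp or more, and the median distance to the nearest region rose to 174 kb and 90.1 kb, as fewer regions were counted. The ratio of the domain to the rest ranged from 0.985 to 1.52 over 9 alternatives, and all 9 intervals included 1. Windows of 1 and 4 Mb were added after seeing the data. The windows of 8 and 16 Mb described above were not among the 9. In 8 Mb the density was 5.75 per Mb (4.21 to 7.67), above the 3.65 per Mb of the rest. The ratio of the last to the first 10% of the span ranged from 1.15 to 1.55 over 6. No paired analysis was possible because replicate numbers mark single libraries, for which the deposited list gives no values. Depth is unknown, so the number of sites under the threshold of the caller is unknown.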
